A study of Mus musculus with 4 samples.

Results

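Collagen genes were examined here in mouse macrophages by ATAC-seq, an assay in which a transposase cuts and tags the DNA that is not covered by packed nucleosomes. The genes were chosen by symbol alone, as the protein-coding genes of the RefSeq table for mm10 (assembly GRCm38.p6) named Col, a number, a, and a number. The rule found 44 genes among 21900. The peaks of 4 libraries were merged wherever they overlapped by at least 1 bp, which gave 91858 regions, and 185 of these lay inside a collagen gene or within 1 kb of an end of it. A region within 1 kb of either annotated end is called a gene-end region below, and a library is said to call a region when a peak of its list overlaps it.

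All 4 libraries came from bone marrow cells that had been grown into macrophages over 7 to 10 days with L929 cell medium and then kept for 24 hours in medium conditioned by Hepa1-6, a mouse hepatoma line. The 2 knockout (KO) libraries came from Ezh2fl/fl;LysM-Cre+/- mice, in which Cre is expressed from the lysozyme M locus of myeloid cells and removes the floxed part of Ezh2. The 2 wild-type (WT) libraries came from littermate controls, and the labels do not say whether these carry Cre or the floxed alleles, nor the age or sex of any mouse. Nor do they say whether the replicates of a genotype came from separate mice or cultures, so the spread between libraries may be technical.

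Collagens are proteins of the extracellular matrix whose alpha chains wind into a triple helix. Fibrillar collagens give tissues tensile strength, type IV chains form the mesh of basement membranes, type VI forms beaded filaments, and the fibril-associated, multiplexin and transmembrane groups decorate fibrils, basement membranes or cell surfaces. Most are made by fibroblasts, chondrocytes, epithelia and endothelia, whereas macrophages are better known for taking up and degrading collagen. Ezh2 is the catalytic subunit of Polycomb repressive complex 2, which marks the histones of silent developmental genes.

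The peak lists held between 67055 and 72887 peaks. They give no read counts, so the depth of each library is unknown, and closed chromatin and low depth cannot be told apart where a peak is missing. The fold of a peak is the authors' own value, the enrichment over the peak caller's local background, and its percentile is its rank by fold within the list of its own library. Strength below means the lowest of these percentiles over the libraries that called a region. As a check on the labelled cell type, a gene-end region was called in all 4 libraries at 12 of 12 macrophage markers, among them Spi1, Csf1r and Adgre1. The same count was 4 of 12 for fibroblast or stromal markers, 2 of 8 for endothelial, 1 of 8 for hepatocyte and 1 of 8 for chondrocyte or osteoblast markers. Over all protein-coding genes, 54.6% had such a region. Pdgfra, Pdgfrb, Dcn and Lum of the fibroblast list were not among those called, and Thy1, Postn, Acta2 and Fap were. Ezh2 itself kept 3 of its 6 regions in all 4 libraries, and a peak list does not show whether its floxed exons were present.

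Most collagen genes had a called region, but few had one at a gene end in every library. At least 1 region was called in some library at 35 of the 44 genes (79.5%), against 74.1% of all protein-coding genes. Any region called in all 4 libraries was present at 24 of the 44 (54.5%), against 66.3%. A gene-end region called in all 4 was present at 10 of the 44 (22.7%), against 54.6% of all protein-coding genes. The 10 were Col1a1, Col4a1, Col4a2, Col4a5, Col13a1, Col14a1, Col15a1, Col18a1, Col23a1 and Col25a1. A further 14 genes had a region called in all 4 libraries only deeper inside them, 11 had regions but none called in all 4, and 9 had none. The number of genes with a shared gene end was 5 when peaks had to cover at least 50% of the region, and 4 and 2 with the weakest 25% and 50% of each list removed, where the shares over all genes were 47.7%, 49.4% and 40.1%. The 5 genes were Col4a5, Col14a1, Col15a1, Col18a1 and Col23a1. The 4 were Col1a1, Col13a1, Col14a1 and Col23a1, and the 2 were Col1a1 and Col23a1. Of the shared gene-end regions of Col23a1, only that over the promoter of the neighbouring gene Phykpl, described below, had a strength above 50 (68.9).

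The RefSeq promoter table, with 250 bases before and 50 after each transcription start, had an entry for 35 of the 44 genes. The promoter window was overlapped by a region called in all 4 libraries at 6 of these 35, against 52.9% of the 17492 protein-coding genes with an entry. These 6 windows are printed because, among the collagen promoters with an entry, they are those open in every library. The 9 collagen genes without an entry, among them Col1a1 and Col14a1, could not be judged in this way. With the weakest 25% of each list removed, only Col23a1 of these 6 genes kept a shared gene-end region. They lie on GRCm38.p6 at chr8:11312777-11313076 (Col4a1, minus strand), chr8:11312555-11312854 (Col4a2, plus strand), chrX:141475169-141475468 (Col4a5, plus strand), chr10:77166481-77166780 (Col18a1, minus strand), chr11:51289670-51289969 (Col23a1, plus strand) and chr3:130180595-130180894 (Col25a1, plus strand). Each is written 5′ to 3′ in the direction of its gene. Capitals mark matches on either strand to GGGCGG, the core of a GC box, and to the letters of the CCAAT box.
Col4a1: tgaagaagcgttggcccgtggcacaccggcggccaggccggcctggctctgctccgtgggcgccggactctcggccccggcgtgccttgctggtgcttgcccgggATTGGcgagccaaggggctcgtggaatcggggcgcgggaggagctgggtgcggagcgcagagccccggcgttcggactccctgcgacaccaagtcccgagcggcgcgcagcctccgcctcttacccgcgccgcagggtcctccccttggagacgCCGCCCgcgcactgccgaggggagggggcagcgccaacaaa
Col4a2: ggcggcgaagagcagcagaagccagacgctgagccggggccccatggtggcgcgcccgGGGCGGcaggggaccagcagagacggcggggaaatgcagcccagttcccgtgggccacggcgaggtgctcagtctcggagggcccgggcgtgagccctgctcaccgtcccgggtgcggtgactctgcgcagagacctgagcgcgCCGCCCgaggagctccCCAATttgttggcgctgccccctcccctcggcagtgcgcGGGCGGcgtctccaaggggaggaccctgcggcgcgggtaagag
Col4a5: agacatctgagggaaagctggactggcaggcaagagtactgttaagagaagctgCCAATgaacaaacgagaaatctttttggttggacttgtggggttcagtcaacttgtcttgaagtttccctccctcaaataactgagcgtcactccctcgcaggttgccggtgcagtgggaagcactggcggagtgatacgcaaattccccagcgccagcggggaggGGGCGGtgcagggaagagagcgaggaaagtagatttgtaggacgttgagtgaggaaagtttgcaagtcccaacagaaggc
Col18a1: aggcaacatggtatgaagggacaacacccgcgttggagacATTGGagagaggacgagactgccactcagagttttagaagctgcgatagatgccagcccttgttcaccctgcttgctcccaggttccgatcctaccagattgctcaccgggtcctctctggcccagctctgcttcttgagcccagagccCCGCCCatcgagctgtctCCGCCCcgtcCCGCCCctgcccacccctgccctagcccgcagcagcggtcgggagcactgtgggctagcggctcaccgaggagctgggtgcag
Col23a1: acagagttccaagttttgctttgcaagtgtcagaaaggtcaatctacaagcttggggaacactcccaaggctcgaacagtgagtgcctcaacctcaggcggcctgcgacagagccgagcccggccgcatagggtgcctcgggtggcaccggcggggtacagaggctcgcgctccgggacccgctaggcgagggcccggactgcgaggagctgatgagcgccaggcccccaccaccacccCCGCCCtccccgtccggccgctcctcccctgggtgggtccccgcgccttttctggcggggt
Col25a1: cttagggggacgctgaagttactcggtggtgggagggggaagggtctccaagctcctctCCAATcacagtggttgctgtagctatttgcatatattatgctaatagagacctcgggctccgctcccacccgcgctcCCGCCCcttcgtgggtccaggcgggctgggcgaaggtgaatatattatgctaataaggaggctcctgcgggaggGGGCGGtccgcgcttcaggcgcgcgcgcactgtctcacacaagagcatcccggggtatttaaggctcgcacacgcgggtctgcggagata

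CpG dinucleotides were counted in each window. In the open windows the ratio of observed to expected CpG ran from 0.538 at Col18a1 to 0.902 at Col4a1, with a median of 0.759, and the median over the other 32 windows of collagen genes was 0.382. The same medians over protein-coding genes were 0.792 for windows open in all 4 libraries and 0.250 for the others, so the open collagen windows were close to the open windows of other genes. A GC box was found in 6 of the 6 open windows and 17 of the other 32, and in 35.7% of all 32851 windows in the table. The GC box of the Col4a1 window is the same site as one in the Col4a2 window, so the 6 are not independent. A CCAAT box was found in 5 of 6 and 8 of 32, against 37.4% of all windows, and Col23a1 was the open window without it. The letters TATAAA of the TATA box were in 0 of 6 and 5 of 32, against 13.6% of all windows. Of letters often bound in macrophages, the PU.1 core GAGGAAG was in 0 of 6 and 8 of 32 (13.6% of all windows). The AP-1 letters TGANTCA were in 0 of 6 and 1 of 32 (7.81% of all windows). The E box letters CACGTG were in 0 of 6 and 0 of 32 (7.15% of all windows). All motifs were searched on both strands, and a match is a description of the letters and not of binding. The shares over all windows include open and closed ones, and the shares over open windows alone were not computed.

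Type IV collagen genes lie in head-to-head pairs, and the 3 pairs differed. Col4a1 and Col4a2, which encode the chains found in most basement membranes, overlap by 85 bp at their 5′ ends, and their printed windows share 78 bases. A region of 1126 bp (chromosome 8, 11312201 to 11313326) covered both starts in all 4 libraries. It had a fold of 3.11 and 2.80 in the WT pair and 3.05 and 3.63 in the KO pair, so it was low in every list but that of KO replicate 2, with percentiles 9.83 and 4.95 for WT against 7.18 and 29.6 for KO. Inside the genes, Col4a1 had 3 further regions called in all 4 libraries and Col4a2 had 7, the strongest of which had strengths of 64.4 and 50.6. At Col4a5, on the X chromosome, a region of 949 bp (141475298 to 141476246) covered the start in all 4 libraries, with a fold of 4.14 and 3.43 in the WT pair and 3.56 and 3.51 in the KO pair. The 5′ end of its partner Col4a6, 1274 bp away, had a separate region of 417 bp that only WT replicate 2 and KO replicate 1 called, with fold values of 2.92 and 3.20. Col4a3 and Col4a4 overlap by 114 bp, and no library called a region at either end of either gene. Each of them had 1 region called in all 4 libraries deep inside it.

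A few genes held most of the regions shared by all 4 libraries. Col23a1 had 10 regions called in all 4 libraries, Col15a1 had 9, Col4a2 had 8, and Col14a1 and Col25a1 had 7 each, which makes 41 of the 76 shared regions, drawn as the tallest bars in the map of regions along the genes. The 76 regions shared by all 4 libraries were 41.1% of the 185 collagen regions, against 61.2% of 55922 regions in or near protein-coding genes.

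**Figure D1:**
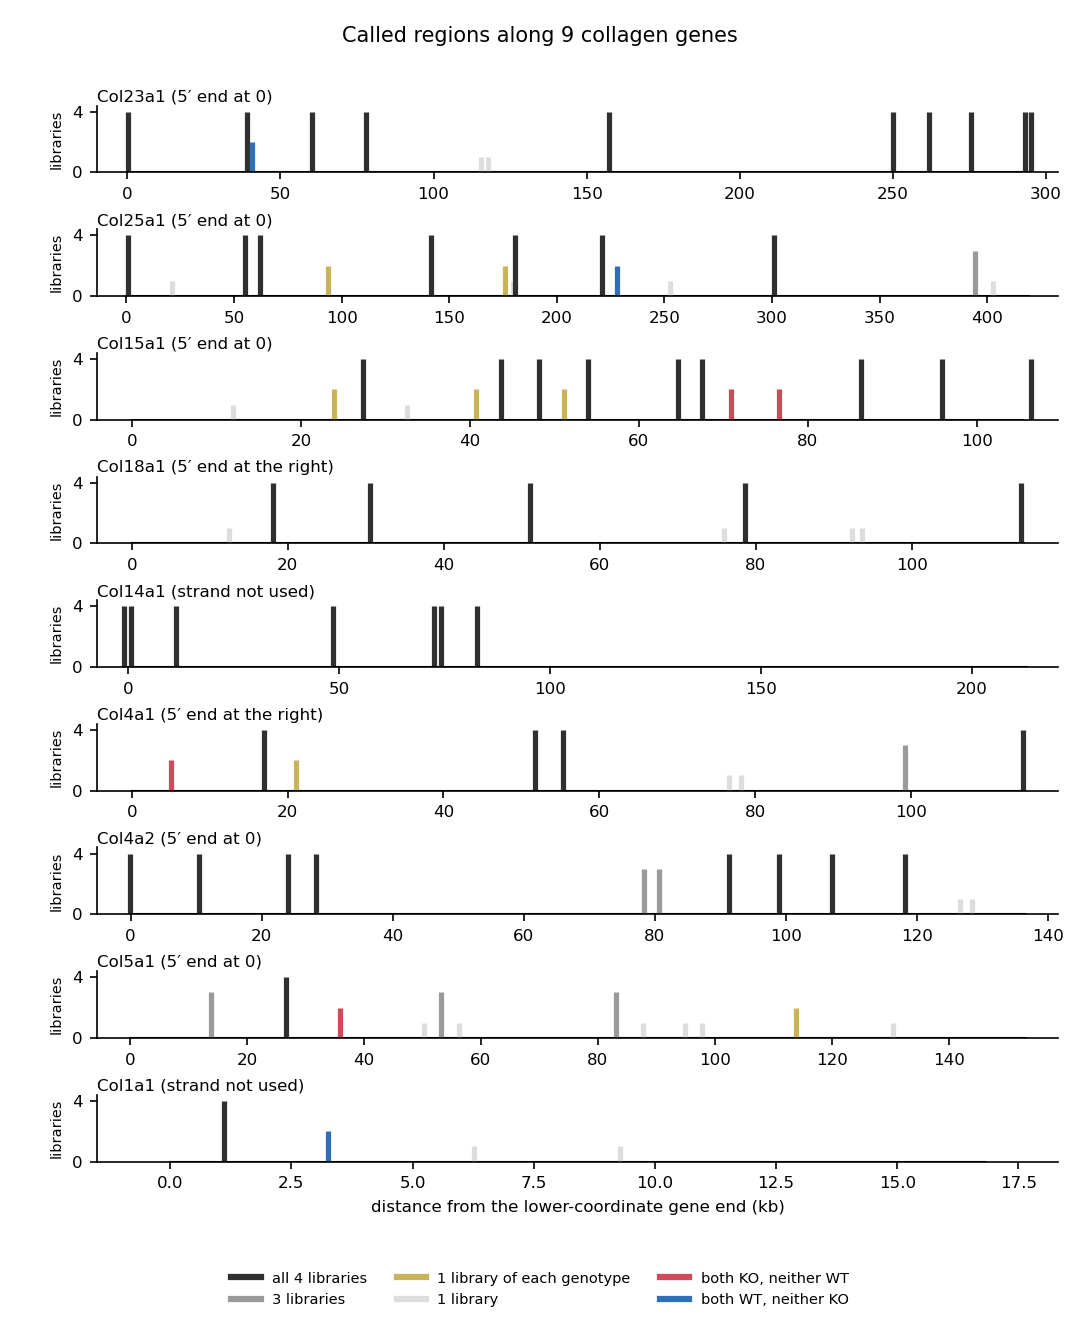
Called regions along 9 collagen genes, by distance in kb from the lower-coordinate gene end, with bar height giving the number of libraries that called the region and colour giving which. Shared regions are spread through the bodies of Col23a1, Col25a1, Col15a1 and Col4a2, whereas the 7 of Col14a1 lie in the lower-coordinate part of the gene.

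Col23a1 encodes a transmembrane collagen that can be shed from the cell surface. Its 5′ end carried a region of 959 bp (chromosome 11, 51289383 to 51290341) with a fold of 4.44 and 4.42 in the WT pair and 5.75 and 5.38 in the KO pair. Fold values here and below come from lists called separately, so a difference between genotypes in them is not a measured change. Of the 5 strongest collagen regions 3 lay inside this gene, at 51349769 to 51349978, 51539419 to 51540127 and 51564999 to 51565543. The lowest-coordinate of them, of 210 bp, was the strongest of all, with a fold of 7.47 and 7.14 in the WT pair and 7.81 and 7.31 in the KO pair, at percentiles from 92.2 to 93.8. The other two had strengths of 88.3 and 86.5. At the 3′ end, a region of 951 bp (51584211 to 51585161) overlapped the promoter window of the neighbouring gene Phykpl, so it cannot be assigned to Col23a1.

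Col15a1 and Col18a1 encode multiplexins, which sit in basement membranes and carry a C-terminal endostatin or endostatin-like domain. Col15a1 had the most regions of any collagen gene, 16, and the highest density of shared regions, 8.53 per 100 kb of gene. A region of 659 bp (chromosome 4, 47303213 to 47303871) 9296 bp from its 3′ end had a fold of 7.65 and 6.71 in the WT pair and 7.81 and 8.11 in the KO pair. That region overlaps the promoter window of the noncoding gene Gm52732, so it cannot be assigned to Col15a1. The promoter window of Col15a1 itself was not overlapped by any region, and its shared gene-end region, of 259 bp and 819 bp beyond the 3′ end, stood at or below percentile 13.8 in every list, with a fold of 2.48 and 3.06 in the WT pair and 2.57 and 2.69 in the KO pair. Of its 16 regions, 9 others overlap a noncoding gene that lies inside Col15a1, and the lists do not tell which of the overlapping genes a region serves. Col18a1 had its outer promoter open, under a region of 1168 bp (chromosome 10, 77165591 to 77166758) with a fold of 3.49 and 3.90 in the WT pair and 3.76 and 3.17 in the KO pair. Its second listed promoter, farther inside the gene, was not overlapped by a shared region.

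Col25a1 encodes a transmembrane collagen known from neurons and developing muscle. A region of 1117 bp (chromosome 3, 130180308 to 130181424) lay over its 5′ end, as a pair of peaks in WT replicate 2 and 1 peak in each other library, with a fold of 3.48 and 3.17 in the WT pair and 3.66 and 3.07 in the KO pair. Its 6 other shared regions were stronger, with strengths from 47.4 to 72.9, against 12.5 at the 5′ end. Col13a1, the transmembrane collagen of the neuromuscular junction, had a single shared region, of 211 bp and 570 bp inside its 3′ end. That region had a fold of 4.35 and 4.36 in the WT pair and 3.77 and 3.69 in the KO pair. Col17a1, a hemidesmosome collagen of epithelia, had 5 regions and none in all 4 libraries.

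Among the fibrillar collagens, the genes most used as fibroblast markers differed from each other. Col1a2 and Col3a1, which encode chains of the main collagens of connective tissue, had no region in any library, and neither did Col11a1 or Col24a1. Col1a1, which encodes the partner chain of Col1a2, had a region of 855 bp in all 4 libraries, beginning 688 bp inside its lower-coordinate end (chromosome 11, 94936912 to 94937766). It had a fold of 6.58 and 5.96 in the WT pair and 4.72 and 6.84 in the KO pair, at percentiles from 54.1 to 88.6, and the values of the genotypes overlap. Col1a1 has no entry in the promoter table. Col5a3 had 2 shared regions inside it, Col11a2 had 2, Col27a1 had 2 and Col5a1 had 1. That of Col11a2 at 34047312 to 34047840 on chromosome 17 was among the 5 strongest, with a fold of 8.18 and 7.92 in the WT pair and 7.14 and 7.75 in the KO pair. Col2a1, the cartilage collagen, and Col5a2 had only regions called in a single library.

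Counting regions called in any library, type VI collagen had the fewest per length of the families, 1.27 per 100 kb. Its 6 genes span 474 kb, and 0 of their 6 regions were shared by all 4 libraries. Col6a1 and Col6a4 had no region at all. Col6a2 had a region of 561 bp at its 5′ end in WT replicate 2 alone, with a fold of 2.96. Col6a3 had 1 region, in the lists of WT replicate 1 and KO replicate 1. By contrast, the 2 multiplexin genes, which span 220 kb, had 14 shared regions, or 6.37 per 100 kb. The type IV, fibril-associated and fibrillar families stood at 1.62, 1.06 and 0.765 shared regions per 100 kb. The transmembrane family stood at 2.0, the short-chain family at 1.21 and type VI at 0.

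Of the 13 shared regions of fibril-associated collagens, 7 lay at Col14a1, whose product binds to the surface of collagen I fibrils. All 7 of its regions were called in all 4 libraries. Its 2 gene-end regions lay at its lower-coordinate end, of 639 bp (chromosome 15, 55306249 to 55306887) and 1224 bp (55307659 to 55308882). The former had a fold of 3.73 and 4.25 in the WT pair and 4.23 and 4.34 in the KO pair. The latter had a fold of 3.18 and 2.95 in the WT pair and 3.29 and 3.13 in the KO pair. The strongest region of the gene, at strength 81.8, lay 73934 bp inside it. Col12a1, which is closely related to Col14a1, had no region, and neither had Col9a3. Col19a1 had 3 shared regions, Col9a2, Col16a1 and Col20a1 had 1 each, and Col9a1 and Col22a1 had none called in all 4 libraries, although Col22a1 is 355 kb long. Of the remaining genes, Col8a2 had 2 shared regions, Col26a1 and Col28a1 had 2 each, and Col7a1, Col8a1 and Col10a1 had 0.

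**Figure D2:**
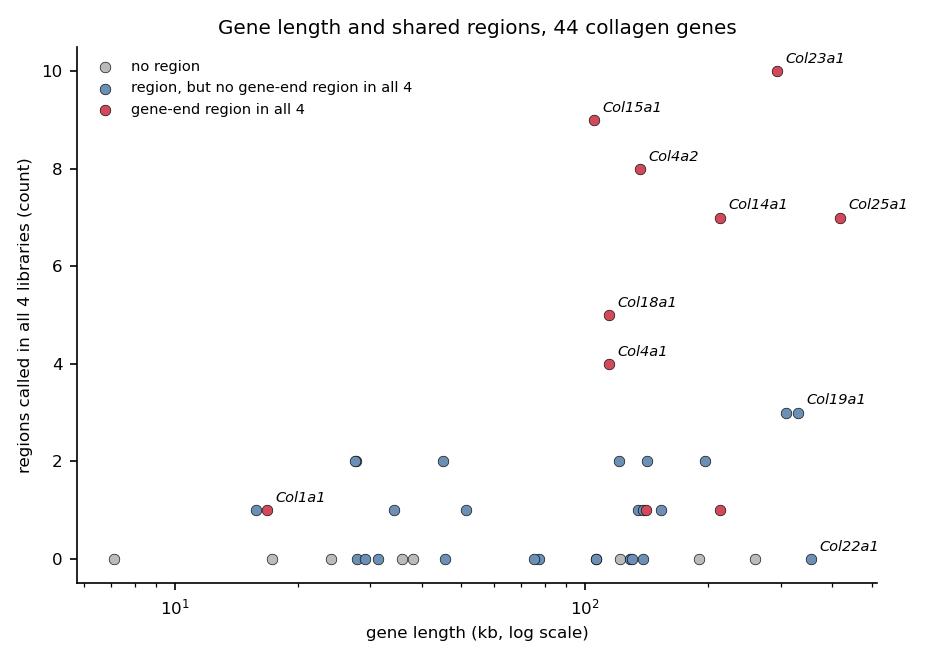
Regions called in all 4 libraries (count) against gene length (kb, log scale) for each of the 44 collagen genes, coloured by whether a gene-end region was called in all 4. Long genes range from 0 shared regions at Col22a1 to 10 at Col23a1, and the genes with a shared gene-end region lie above 100 kb except Col1a1.

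Collagen genes are long, so regions were also set against length. The median collagen gene spans 114 kb, against 17.1 kb for all protein-coding genes. Per 100 kb of gene, collagens had 3.31 regions and 1.34 shared regions inside the gene, against 5.24 and 3.22 for all protein-coding genes. These densities include gene-end regions that overlap the gene, and no comparison was made with genes of like length. Shared regions inside collagen genes had a median strength near that of other genes, and those at gene ends had a lower one. The median strength was 48.1 for the 64 shared regions away from the ends, against 44.7 for all genes. For the 12 shared gene-end regions it was 26.1, against 64.8 for all genes. These medians are descriptions of the members and were not tested.

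The genotypes had similar numbers of called collagen regions. WT replicates 1 and 2 called 117 and 114 of the 185 regions, and KO replicates 1 and 2 called 109 and 139. The means were 115.5 ± 2.12 in WT and 124 ± 21.2 in KO (SD, n = 2 each), and the difference of 8.5 regions was smaller than the spread between the KO replicates (exact two-sided permutation test, p = 1.0, where 0.333 is the smallest p possible). Without KO replicate 2 the difference was -7. KO replicate 2 stood apart, since it alone called 27 of the collagen regions, against 10 to 13 called by each other library alone. No such count over all regions is given here, so this cannot be called particular to collagens. At gene ends the counts were 12 and 15 for the WT replicates and 14 and 15 for the KO replicates. The covered collagen sequence was 39234 ± 2875 bp in WT and 41244 ± 9057 bp in KO (SD, n = 2 each; exact permutation test, p = 1.0).

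**Figure D3:**
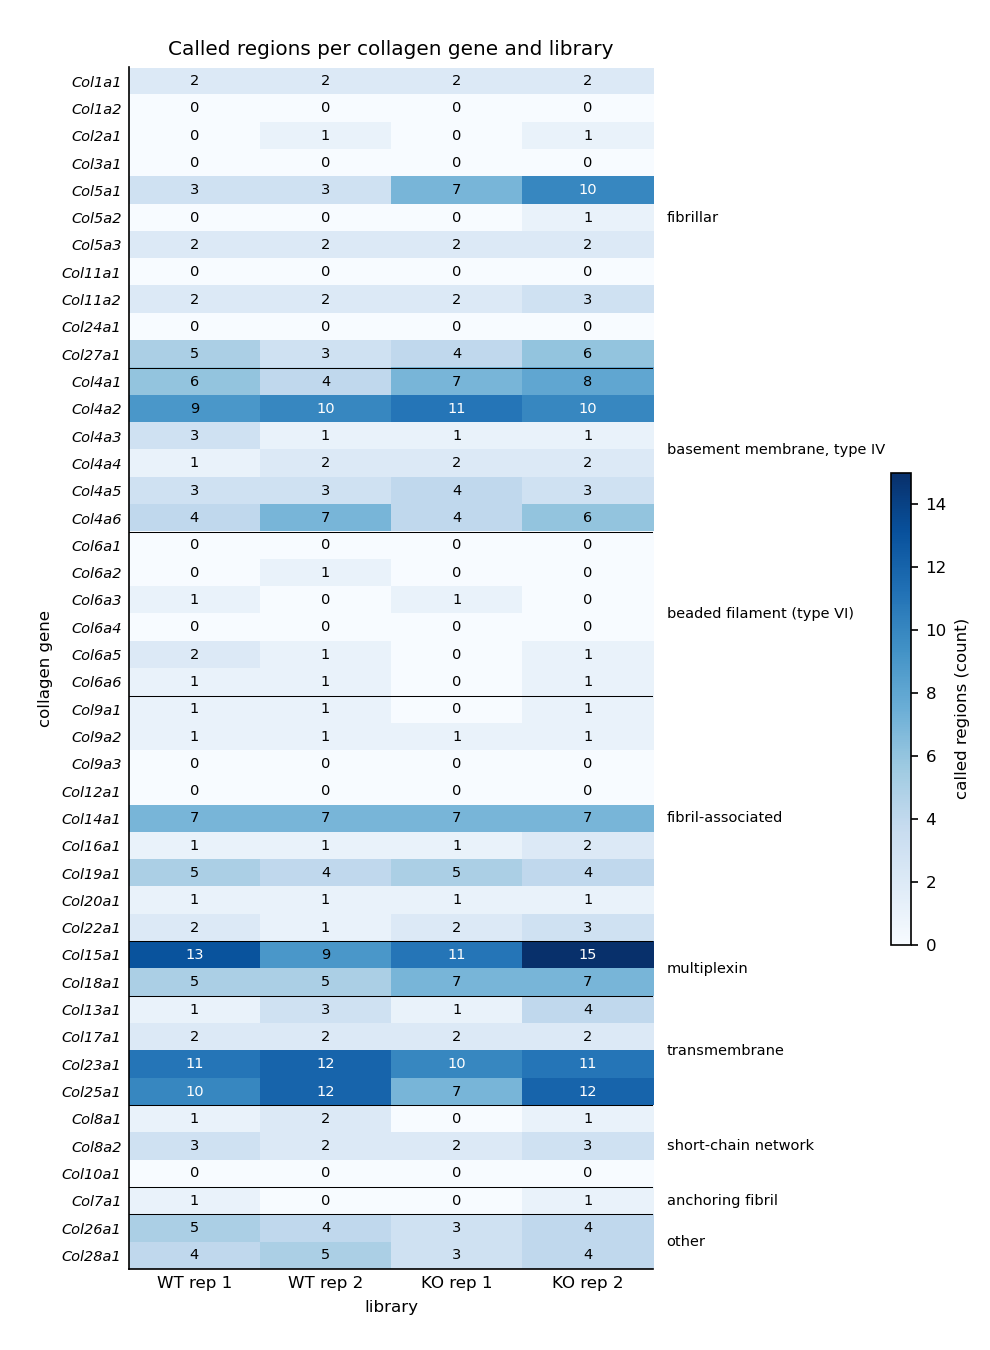
Number of regions called at each of the 44 collagen genes (rows, grouped by family) in each library (columns), with the count in each cell and as colour. Col15a1, Col23a1, Col25a1 and Col4a2 have the highest counts in both WT libraries. In KO replicate 1 other genes, Col5a1 among them, equal Col25a1 at 7, and in KO replicate 2 Col5a1 equals Col4a2 at 10. There are 9 genes at 0 in every library, and Col5a1 has 3 and 3 in WT against 7 and 10 in KO.

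Only small sets of collagen regions followed genotype. KO-only regions, called in both KO libraries and neither WT library, numbered 5 (2.70% of collagen regions), against 1.40% of regions in or near protein-coding genes. WT-only regions, the reverse, numbered 4 (2.16%), against 1.83%. Pairs of libraries that mixed the genotypes called 3 to 8 collagen regions alone, so the genotype pairs lay within that range. With 2 libraries against 2, no test of a single region can reach 0.05, and none was run. Another 21 regions (11.4%) were called in 1 library of each genotype, against 5.71% of regions in or near protein-coding genes. A further 18 (9.73%, against 8.89%) were called in 3 libraries and 61 (33.0%, against 21.0%) in 1 library.

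**Figure D4:**
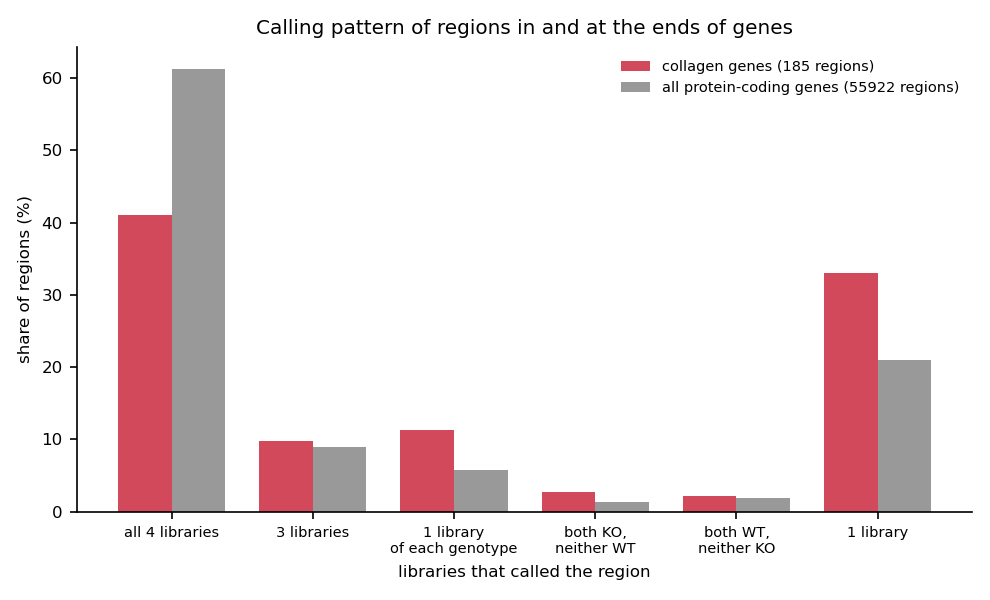
Share of regions (%) by the libraries that called them, for the 185 regions of collagen genes and the 55922 regions in or within 1 kb of all protein-coding genes. Collagen regions were called in all 4 libraries in 41.1% of cases against 61.2%, and in a single library in 33.0% against 21.0%, and genotype-only regions are the smallest classes in both sets.

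A promoter lay under 1 genotype-only region in each direction. At Col19a1, which encodes a fibril-associated collagen of basement membrane zones, a KO-only region of 508 bp (chromosome 1, 24586973 to 24587480) overlapped the promoter window, with fold values of 3.16 and 3.62. These stood at percentiles 10.8 and 29.2 of their lists. Beside it lay a region of 129 bp (24586739 to 24586867) that WT replicate 1 alone called, outside the window. At Col27a1, a fibrillar collagen of cartilage, a WT-only region of 123 bp (chromosome 4, 63215239 to 63215361) lay within the promoter window, with fold values of 3.94 and 7.28 at percentiles 34.4 and 93.9. The annotated end of Col27a1 is 1230 bp away, so this region was not counted as a gene-end region. Over all protein-coding genes with a promoter entry, 0.172% had a KO-only and 0.212% a WT-only region over the window. Both windows are printed because, among the collagen promoters with an entry, they are those whose calls followed genotype. Col19a1 is at chr1:24587388-24587687 on the minus strand and Col27a1 at chr4:63215162-63215461 on the plus strand. Capitals again mark GC box and CCAAT box letters. Col19a1 has neither, and Col27a1 has only GC box letters.
Col19a1: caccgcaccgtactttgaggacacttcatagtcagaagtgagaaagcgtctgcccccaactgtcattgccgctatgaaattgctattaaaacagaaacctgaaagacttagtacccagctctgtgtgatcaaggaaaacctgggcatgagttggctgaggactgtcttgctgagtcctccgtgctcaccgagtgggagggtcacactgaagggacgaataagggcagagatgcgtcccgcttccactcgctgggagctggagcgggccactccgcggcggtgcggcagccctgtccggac
Col27a1: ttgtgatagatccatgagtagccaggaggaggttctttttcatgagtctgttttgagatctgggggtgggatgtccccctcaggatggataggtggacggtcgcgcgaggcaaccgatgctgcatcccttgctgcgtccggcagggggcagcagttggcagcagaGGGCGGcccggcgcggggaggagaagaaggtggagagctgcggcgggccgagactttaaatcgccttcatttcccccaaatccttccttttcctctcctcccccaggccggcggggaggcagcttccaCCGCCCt

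The remaining genotype-only regions lay away from the promoters, and each stood below percentile 50 in its lists. KO-only regions were found 35793 bp from the 5′ end of Col5a1 (290 bp, fold values 3.39 and 4.12), 4858 bp from the 3′ end of Col4a1 (338 bp, 3.65 and 4.31) and at 2 places in Col15a1. Those of Col15a1 were 292 and 155 bp wide, 34502 and 28841 bp from its 3′ end, with fold values of 3.50 and 3.29 for the former and 4.36 and 4.05 for the latter. WT-only regions were found inside Col1a1, 3181 bp from the lower-coordinate end (140 bp, 3.80 and 4.15), inside Col23a1 (695 bp, 3.07 and 3.51) and inside Col25a1 (216 bp, 3.81 and 2.90). Median strength was 19.5 for both the KO-only and the WT-only collagen regions, against 12 and 13.8 for such regions of all genes. With the weakest 25% of each list removed, 3 KO-only and 2 WT-only regions were found, and with the weakest 50% removed 1 of each. With peaks covering at least 50% of the region there were 7 and 5, and without peaks under 150 bp 7 and 2.

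**Figure D5:**
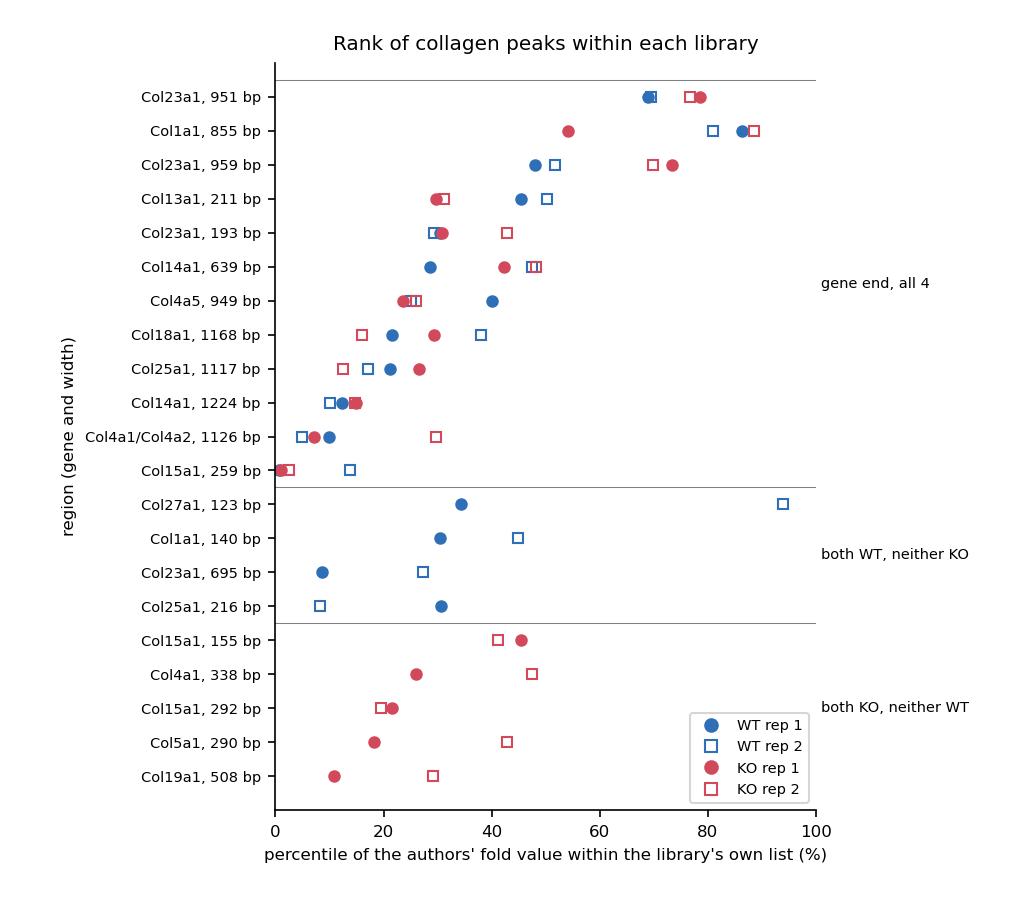
Percentile of the authors' fold value within each library's own list (%) for the 12 shared gene-end regions, the 4 WT-only and the 5 KO-only regions of collagen genes, with 1 point per library that called the region. The gene ends of Col23a1 and Col1a1 reach the upper part of the lists, and genotype-only regions lie below 50 except the Col27a1 region in WT replicate 2.

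Counts of called regions per gene were compared as well, a measure added after the data were seen. At 3 of the 35 genes with a region, each KO library called more regions than each WT library, and the reverse held at 0. Over all protein-coding genes with a region these shares were 3.01% and 4.33%. Col5a1, which encodes a regulatory chain of collagen fibrils, had 3 and 3 called regions in WT and 7 and 10 in KO, Col18a1 had 5 and 5 against 7 and 7, and Col4a1 had 6 and 4 against 7 and 8. At Col5a1, 6 of the 12 regions were called in a single library, KO replicate 1 for 1 of them and KO replicate 2 for 5, and their strengths ran from 1.66 to 28.2. At Col18a1, 4 of the 9 regions were called in a single KO library, with strengths from 2.44 to 9.39. With the weakest 25% of each list removed, the counts at Col5a1 were 2 and 2 in WT and 0 and 4 in KO, and 0 of the 30 genes that still had a region had more calls in each KO library, against 1 (Col25a1) in each WT library. With the weakest 50% removed these counts were 1 (Col14a1) and 3 (Col19a1, Col4a3 and Col4a5). They were 3 (Col5a1, Col18a1 and Col22a1) and 2 (Col26a1 and Col6a5) with peaks covering at least 50% of the region, and 1 (Col5a1) and 1 (Col26a1) without peaks under 150 bp. The shares over all genes were not computed under these alternatives, so these counts show only that the genes change with the setting.

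Widths of the 76 shared regions differed between genotypes in both directions. The peaks of both KO libraries were wider than those of both WT libraries at 8 regions (10.5%), against 16.6% of shared regions of all genes. The reverse held at 15 regions (19.7%), against 16.5%. At the Col18a1 promoter the peaks spanned 827 and 727 bp in WT and 1084 and 1028 bp in KO, and at the inner gene-end region of Col14a1 they spanned 692 and 664 bp in WT and 1090 and 938 bp in KO. At the Col14a1 region outside the gene the order was the opposite, 517 and 544 bp in WT and 244 and 356 bp in KO. Peaks were also wider in WT at the start of Col4a5, 903 and 949 bp against 893 and 710 bp in KO. The same held beyond the 3′ end of Col15a1, with 203 and 213 bp in WT and 153 and 199 bp in KO.

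Most genes that modify and fold collagen chains were accessible at a gene end, unlike most collagens. Of 16 genes that modify and fold the chains, 13 had a shared gene-end region, including the prolyl hydroxylases P4ha1 and P4ha2, P4hb, the lysyl hydroxylases Plod1 and Plod3, and P3h1. The region at the start of P3h1 had a fold of 7.67 and 7.74 in the WT pair and 8.04 and 7.55 in the KO pair. P4ha3, Plod2 and Serpinh1, which encodes the collagen chaperone Hsp47, were the exceptions. Of 11 genes for secretion and removal of propeptides 5 had such a region, among them Mia3 and Bmp1. Of 5 crosslinking enzymes only Loxl3 had one, and Lox, Loxl1, Loxl2 and Loxl4 had regions but none at a gene end in all 4 libraries. Of 10 receptor and uptake genes 5 had one, including Itgb1, Itga1, Itga2 and Lair1, an inhibitory collagen receptor of leukocytes with a fold of 6.31 and 6.79 in the WT pair and 6.61 and 6.11 in the KO pair. Ddr1 and Ddr2, the discoidin domain receptors, had no shared gene-end region. The share over all protein-coding genes was 54.6%, as above.

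Genotype-only regions of these partner genes went in both directions. A KO-only region was present at 1 of the 5 crosslinking and 1 of the 10 receptor and uptake genes, against 3.41% of all protein-coding genes. A WT-only region was present at 2 of the 16 modification and folding genes and 2 of the 10 receptor and uptake genes, against 4.44%. Mrc2, which encodes the collagen uptake receptor Endo180, had a KO-only region of 530 bp beginning 131 bp inside a gene end (chromosome 11, 105292224 to 105292753), with fold values of 3.03 and 3.42. Loxl2 had 2 KO-only regions, of 353 and 187 bp, inside it. P4ha1, P3h2, Itga1 and Ddr2 had 1 WT-only region each, all away from the gene ends. The lowest percentile of each of these regions ran from 3.04 at Ddr2 to 22.7 at Itga1.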

How the data were processed

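ATAC-seq peak lists of 4 libraries (2 WT, 2 KO) were analysed. The submitters' processing notes name fastp, Bowtie2 and MACS2, without versions, and the build mm10. Libraries had paired reads of 150 bp. Per the labels and file layout, peaks were called per library and not pooled. The deposited lists hold a score, the −log10 p and −log10 q of each peak, and its fold over the local background. These are the authors' values. No source used here gives the filter the authors applied.

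Peaks were merged into regions, calls counted and genes placed with Python 3.11.15 and pandas 2.3.3. Region strength takes the peak of highest fold where a library has several, as in 3 of the 185 regions. Gene ends are those of the RefSeq table, and strand was read from its promoter entries where a gene has one. Merging and assignment were tested on simulated peaks. The total per library was compared by an exact permutation test, and no test was made per region or per list. The gene families, lists and members were chosen with earlier results of these data known. Per-library values are given for shared gene-end regions, genotype-only regions, the 5 strongest regions and a few set genes, and other members are given by counts. Alternatives were peak coverage, strength, width, merging gap, gene-end distance and leaving out each library. Regions of genes are given on mm10. Technical sources of the calls were not tested.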

Additional observations from a re-analysis of the deposited data

How the results depend on the processing

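Every value here is a count of peak calls, and the files give no depth, so a missing call cannot be told from low coverage. When peaks had to cover at least 50% of a region, the genes with a shared gene end numbered 5 in place of 10. With the weakest 25% of each list removed there were 4 such genes, 113 collagen regions, 3 KO-only and 2 WT-only regions, and the difference in regions per library was -7. With the weakest 50% removed there were 2 such genes (Col1a1 and Col23a1), 70 regions, 1 KO-only and 1 WT-only region, and the difference was -4.5. Of the shared gene-end regions of Col23a1, only that over the Phykpl promoter had a strength above 50 (68.9), and it cannot be assigned to Col23a1. At this setting 32 of the 70 collagen regions (45.7%) had a call from every library, where the share for regions of all protein-coding genes was 61.5%. With peaks under 150 bp removed there were 7 KO-only and 2 WT-only regions, and with at least 50% coverage there were 7 and 5. The cause of these shifts was not tested, except that the filters leave fewer peaks. Merging gaps of up to 100 bp and setting the gene end at 500 bp or 2 kb left each count within 1.5 times its value. Leaving out 1 library at a time gave 10 to 32 KO-only regions and 4 to 17 WT-only regions, since a single library then stands for a genotype. It gave differences from -7 (without KO replicate 2) to 23.5 (without KO replicate 1), and 10 genes with a gene-end region in all libraries each time. With a replicate block, an alternative added after the data were seen, the mean difference was 8.5 (exact sign-flip test, p = 1.0), from -8 for replicate 1 and 25 for replicate 2. Equal numbers did not deviate together across 55922 regions of genes (correlation 0.00822), and the labels do not tie them.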

Other observations

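The 9 collagen genes without a region differed in how far they lay from accessible sequence. The nearest region called in all 4 libraries was 8289 bp from Col9a3 and 8983 bp from Col6a1. It was 21145 bp from Col10a1, the collagen of hypertrophic cartilage, 23922 bp from Col24a1, 38282 bp from Col12a1, 46381 bp from Col1a2 and 62976 bp from Col6a4. At Col11a1 it was 194899 bp away, and at Col3a1 445178 bp away. The nearest region of any kind to Col3a1, 82339 bp away, was the only region of Col5a2 and was called in KO replicate 2 alone. A region called in fewer libraries lay nearer to Col1a2, at 3157 bp, and to Col12a1, at 2087 bp. The same was true of Col10a1, at 18945 bp, and Col6a4, at 32235 bp.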
